A study of Mus musculus with 14 samples.

Results

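The Ifitm genes encode small interferon-induced transmembrane proteins of the CD225 family. Members of the family were taken as the entries of the deposited table whose symbol is Ifitm1, Ifitm2, Ifitm3 or Ifitm6, and 3 of these 4 were found among its 14329 genes: Ifitm2, Ifitm3 and Ifitm6. Ifitm1 was not analysed here. The study asked how dorsal horn microglia respond in inflammatory arthritis in wild-type (WT) mice and in TASTPM mice, a transgenic model of Alzheimer's disease. RNA-seq was made from 2000 sorted CD45low CD11b+ CX3CR1+ cells per sample, collected from the dorsal lumbar spinal cord at day 5 after serum transfer (ST). All mice were 6 months old. WT mice were C57BL/6 animals without a transgene, and TASTPM mice were heterozygous for human transgenes that include APP with the Swedish mutation. The transgenes are driven by the Thy-1 promoter, which is used for expression in neurons. Arthritis came from serum of K/BxN mice, whose antibodies cause joint inflammation, and control mice were given serum from arthritis-free KRN/C57 mice. There were 4 libraries each for WT K/BxN ST and TASTPM K/BxN ST and 3 each for WT Control ST and TASTPM Control ST. The study states that male and female mice were used in equal numbers for its transcriptomic work. The Control ST groups were not alike in sex-linked transcripts, as given below. The study names members of this family for the TASTPM response, so their choice was not independent of these libraries.

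IFITM proteins sit in the plasma membrane and in the membranes of endosomes and lysosomes, where they restrict the fusion of many enveloped viruses. Type I interferons signal through IFNAR1 and IFNAR2 and interferon gamma through IFNGR1 and IFNGR2. Their transducers, which include STAT2 and IRF9, then bind ISRE and GAS elements near the start of target genes. Ifitm3 is the member best known for restricting influenza virus, Ifitm2 is a close relative that also acts in endosomes, and Ifitm6 is a rodent gene mostly studied in myeloid cells. IFITM3 has also been described as a partner of gamma-secretase, the protease that releases amyloid-beta from APP, in neurons and astrocytes.

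The members lie side by side on chromosome 7 of the mouse genome GRCm39. Ifitm2 (ENSMUSG00000060591) runs from chr7:140534738-140536228, Ifitm3 (ENSMUSG00000025492) from chr7:140589499-140591282 and Ifitm6 (ENSMUSG00000059108) from chr7:140595612-140597837, all on the reverse strand. Ifitm1 lies between Ifitm2 and Ifitm3 on the forward strand, at chr7:140546316-140549743. Between Ifitm3 and Ifitm6 there are only 4329 bases, and the 4 genes span 63100 bases in all.

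**Figure D1:**
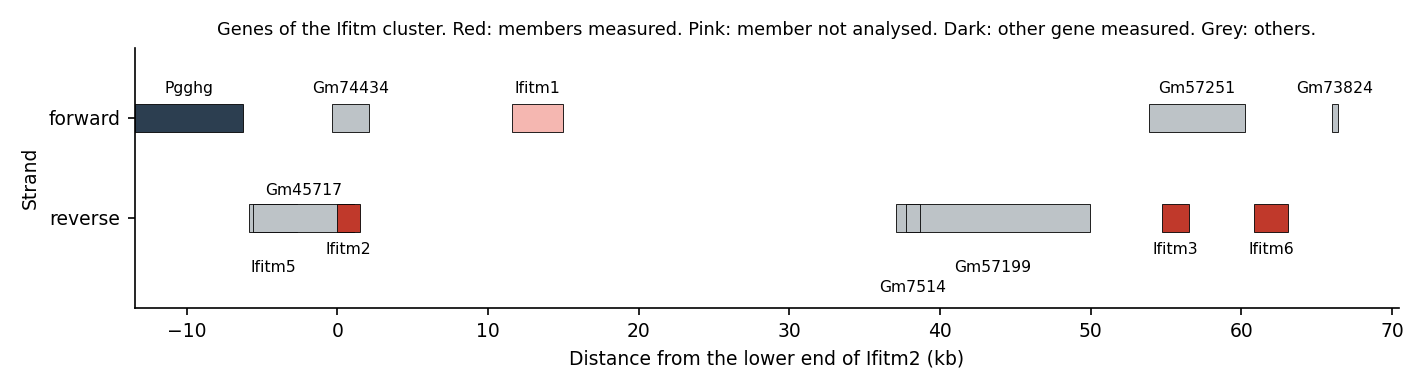
Map of the Ifitm cluster, with the distance in kilobases from the lower end of Ifitm2 on the horizontal axis and the strand on the vertical axis. Bars are gene spans, red for the 3 members measured, pink for Ifitm1, dark for the other gene measured and grey for the rest, and Ifitm3 and Ifitm6 are seen to lie 4329 bases apart.

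The start sites of the members were searched for ISRE and GAS elements because these are the letters through which interferon signalling is known to reach such genes. Windows from 250 bases before to 50 bases after the RefSeq start of each gene were read from the GRCm38.p6 table of promoters and placed in GRCm39 by an exact match. For Ifitm2 and Ifitm3 the window begins inside an annotated exon. Their nearest annotated starts lie 46 and 2 bases from the RefSeq start, so the positions below hold for that start only. The ISRE core was searched as GAAANNGAAA, GAS as TTCNNNGAA and the TATA box as TATAAA, all on both strands. An ISRE core was found in 3.43% of 32817 such windows of the genome, GAS in 8.29% and TATAAA in 13.62%. With positions counted from the start as base 1, Ifitm2 held 1 ISRE core, at −46 to −37, and Ifitm3 held 2, at 3 to 12 and at 20 to 29. Ifitm6 held none, but had a TATA box at −46 to −41. A GAS match lay at 14 to 22 of Ifitm3, where it overlaps the second ISRE core, and another at −10 to −2 of Ifitm6. Ifitm2 also had the TATA letters on the opposite strand, at −175 to −170, and the window of Ifitm1 held none of the 3 motifs. The windows of 30 bases around the main matches are shown 5′ to 3′ on the strand of the gene, to show the core that Ifitm2 and Ifitm3 both hold. Capitals mark the ISRE core in Ifitm2 and Ifitm3 and the TATA box in Ifitm6.
Ifitm2, chr7:140535893-140535922, reverse strand: agGAAAAGGAAAttgctagagaaagggcgg
Ifitm3, chr7:140590628-140590657, reverse strand: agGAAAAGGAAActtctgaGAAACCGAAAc
Ifitm6, chr7:140596834-140596863, reverse strand: ccacaatggttcTATAAAagtgcctgtgac
Such matches are letters only, and no binding was measured.

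Before the members are compared, 4 of the 14 libraries have to be named. Libraries were summed over 11 monocyte and 13 neutrophil markers, in the reads-per-million unit (RPM) over reads on genes, and any library above 5 times the median of all 14 was called marker-rich. These were TASTPM K/BxN ST replicates 1 and 2 and the first and second WT K/BxN ST library in the order of the deposited values. Monocyte markers reached 5780 to 10988 RPM in these 4 and 14.8 to 70.3 in the other 10, although the sort took CD45low cells and the gating of the study also left out Ly6C+ and CCR2+ cells. Ly6c2 had 12898 to 29133 normalised counts in the 4 libraries and at most 17.8 in the other 10, and Ccr2 had 8537 to 27035 against at most 86.0. Dendritic markers, too, were higher in the 4, at 62.5 to 546 against 0.0494 to 13.4 RPM. The microglia list was lower, at 17867 to 42308 against 51830 to 68139 RPM. Tmem119, a microglial marker, had 42292 to 84054 normalised counts in the 4 libraries and 120565 to 162963 in the other 10, and P2ry12, another, had 34656 to 94752 against 106484 to 166138. Neutrophil markers were at 12587 to 14017 RPM in 3 of the 4, but at 629 in the second WT K/BxN ST library, where Ly6g, a defining neutrophil marker, was at 0. The other 10 libraries had 243 to 710. The 6 T and NK cell markers and the endothelial marker Cldn5 were not analysed here, and 3 other endothelial markers summed to 11.6 to 37.9 RPM throughout. The libraries held 14223015 to 20239175 reads on genes, and the marker-rich ones were within that range.

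Ifitm3 was the most abundant member. Its normalised counts are its reads scaled by a single factor for each library. WT Control ST libraries had 317, 802 and 393 normalised counts of Ifitm3, and TASTPM Control ST libraries had 1009, 872 and 432. The 4 WT K/BxN ST libraries had 25126, 16844, 497 and 957. For TASTPM K/BxN ST the 4 replicates had 32670, 12281, 289 and 675. Replicates of each K/BxN ST group thus fell into a high pair and a low pair, and the low pairs overlapped the Control ST libraries in both genotypes.

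Ifitm2 was divided in the same way. It had 21.6, 26.0 and 17.2 normalised counts in WT Control ST and 30.3, 122 and 114 in TASTPM Control ST. Its 4 values under K/BxN serum in WT were 8511, 5133, 11.9 and 79.6. TASTPM K/BxN ST replicates had 10200, 3104, 35.2 and 45.1. The high pairs are again the marker-rich libraries, and 1 of the low WT K/BxN ST libraries lay under all 3 WT Control ST libraries.

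Ifitm6 was close to absent outside the marker-rich libraries. It had 2.81, 0 and 0.955 normalised counts in WT Control ST, which rest on 4 reads in all (exact Poisson 95% interval 1.09 to 10.2, counting error only). TASTPM Control ST libraries had 3.13, 24.4 and 3.63 normalised counts. WT K/BxN ST libraries had 4929, 2771, 2.39 and 7.63, which again falls into a pair far above the rest and a pair near it. TASTPM K/BxN ST replicates had 5792, 1688, 0 and 1.13. Of the 10 libraries that were not marker-rich, 7 had 3 or fewer reads of Ifitm6, the smallest number taken as detectable. Ifitm6 therefore failed the minimum of 10 reads in 7 libraries, and was tested beside the 12645 genes that met it.

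**Figure D2:**
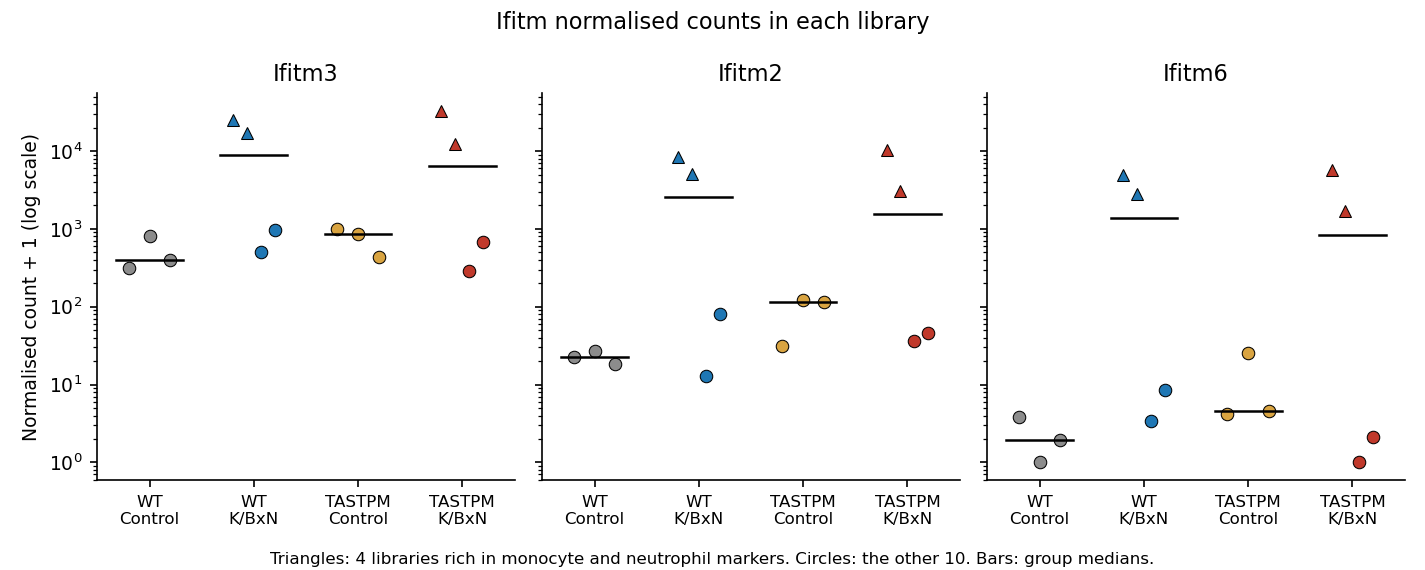
Normalised count plus 1 (log scale) of Ifitm3, Ifitm2 and Ifitm6 in each of the 14 libraries, by genotype and serum. Triangles are the 4 marker-rich libraries, circles the other 10 and bars the group medians, and all 3 members are seen to be high in the 4 triangles alone, with Ifitm3 at 12281 or more there and at 1009 or less elsewhere.

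The gap between the 4 libraries and the other 10 was wide for each member. The lowest marker-rich library stood 12.2-fold above the highest of the others for Ifitm3, 25.4-fold for Ifitm2 and 69.1-fold for Ifitm6. All 3 members were thus higher in each of the 4 libraries than in any of the 10, as were 7.64% of the 12646 genes tested, while 2.51% were lower in each. Because the 4 were chosen by their monocyte and neutrophil markers, these gaps are a description of the libraries and carry no test. In RNA from sorted cells, a larger number of cells of another type and more RNA per cell cannot be told apart.

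In RPM per kilobase of exon, Ifitm3 stood above Ifitm2 and Ifitm2 above Ifitm6 in all 14 libraries, with the exons of all transcripts or with the canonical transcript as the length. In the 10 libraries that were not marker-rich, the level per length was 13.4 to 45.2 for Ifitm3, which places it above 83.7% to 95.2% of the genes of the same library. It was 0.704 to 7.31 for Ifitm2 and 0 to 1.38 for Ifitm6. In the 4 marker-rich libraries the level per length was 577 to 1551 for Ifitm3, 187 to 621 for Ifitm2 and 95.9 to 332 for Ifitm6. There all 3 members were above at least 97.2% of genes.

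The proportions between the members differed between these libraries too. In normalised counts, Ifitm2 was 25.3% to 33.9% of Ifitm3 in the marker-rich libraries and 2.40% to 26.3% in the others. Ifitm6 was 13.7% to 19.6% of Ifitm3 in the former and 0% to 2.80% in the latter. The range of the 4 libraries was narrow although they came from both genotypes. Ifitm3 relative to Ly6c2, which encodes the monocyte surface antigen Ly6C, was 0.785 to 1.31 in the same 4 libraries. It is not given for the others, where Ly6c2 had only 2 to 16 reads. Monocyte and neutrophil markers parted in 1 of the 4 libraries only: the second WT K/BxN ST library, with S100a8 at 143 normalised counts against 39499 to 53594 in the other 3, had 16844 of Ifitm3, within the range of the other 3.

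**Figure D3:**
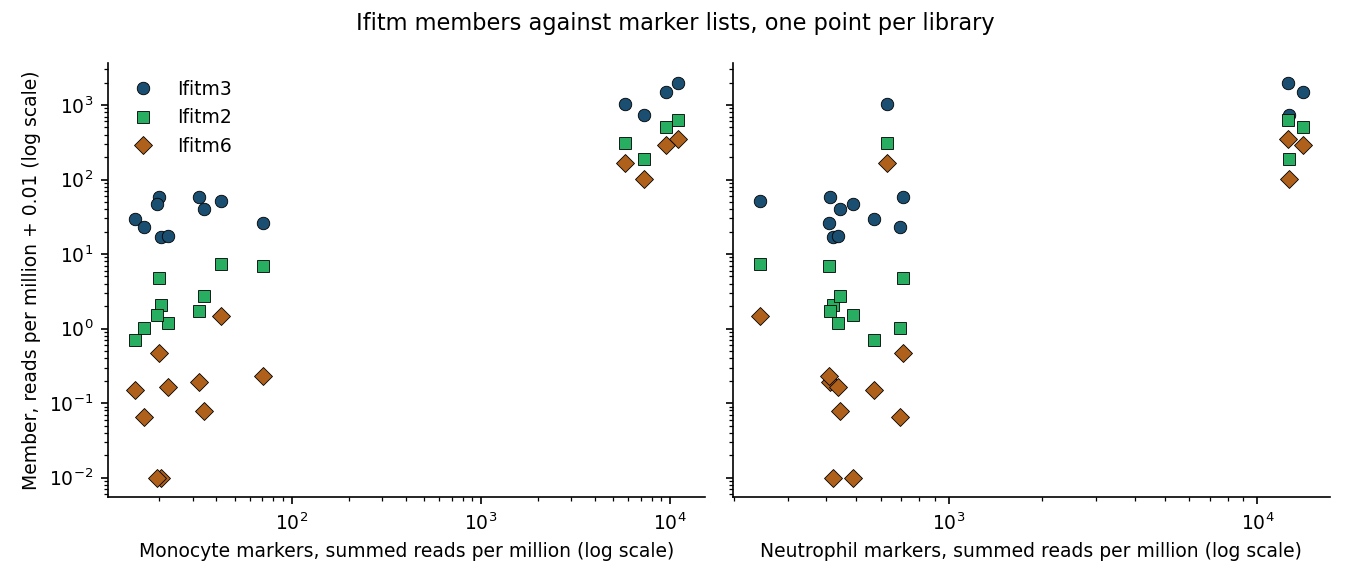
Level of each member (RPM plus 0.01, log scale) against the summed RPM (log scale) of 11 monocyte markers on the left and 13 neutrophil markers on the right, with 1 point per member and library. On the left all 3 members are high at 5780 to 10988 RPM of monocyte markers, and on the right 1 library with high members lies at 629 RPM of neutrophil markers.

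K/BxN ST was first compared with Control ST in WT. The log2 fold change, on the scale of log2(normalised count + 1), was 3.02 (standard error 1.53) for Ifitm3, 4.37 (standard error 2.19) for Ifitm2 and 6.18 (standard error 3.03) for Ifitm6. None passed in limma, with adjusted p of 0.711, 0.706 and 0.698, so 0 of 3 members were called at an adjusted p below 0.05 and an absolute log2 fold change above 1. Over all genes tested 0.00791% were called. Libraries of the groups overlapped for each member, and 3 of 4 WT K/BxN ST libraries were above all 3 WT Control ST libraries. By an exact permutation test (two-sided, 35 splits, smallest possible p 0.0286) p was 0.200 for Ifitm3, 0.257 for Ifitm2 and 0.171 for Ifitm6. Without the marker-rich libraries the log2 fold changes were 0.57 (95% interval −0.63 to 1.77), 0.54 (−1.86 to 2.93) and 1.47 (−2.23 to 5.17), with an adjusted p of 1 for each in limma.

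The same comparison in TASTPM gave a log2 fold change of 2.04 (standard error 1.53) for Ifitm3, 2.66 (standard error 2.19) for Ifitm2 and 3.10 (standard error 3.03) for Ifitm6. The limma adjusted p was 0.964 for each, 0 of 3 members were called, and 0% of all tested genes were. Without the marker-rich libraries, TASTPM K/BxN ST replicates 3 and 4 remained against 3 TASTPM Control ST libraries, and the log2 fold changes became −0.71 (95% interval −1.91 to 0.49), −0.90 (−3.29 to 1.5) and −2.43 (−6.13 to 1.27), with limma adjusted p of 0.996. Exact permutation tests over all 7 libraries gave p = 0.400, 0.371 and 0.429 for Ifitm3, Ifitm2 and Ifitm6 (two-sided, smallest possible 0.0286).

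Over both genotypes, the mean log2 fold change for K/BxN ST was 2.53 (standard error 1.08) for Ifitm3, 3.51 (standard error 1.55) for Ifitm2 and 4.64 (standard error 2.15) for Ifitm6. The unadjusted p in limma was 0.0343, 0.0386 and 0.0475, and the adjusted p was 0.536 for each, so 0 of 3 were called, as were 0% of all genes. At an unadjusted p below 0.05, 5.80% of all genes were higher and 3.46% lower. Exact permutation tests over the 1225 splits within genotype gave two-sided p of 0.0727, 0.0784 and 0.0931. These values rested on the 4 marker-rich libraries. Without them the mean log2 fold changes were −0.07 (95% interval −0.92 to 0.78) for Ifitm3, −0.18 (−1.88 to 1.51) for Ifitm2 and −0.48 (−3.10 to 2.13) for Ifitm6, with limma adjusted p of 0.994, 0.993 and 0.977.

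The tool mattered as well. DESeq2, the tool that the study used, was run on the reads recovered from the deposited values. It called Ifitm2 and Ifitm6 higher in WT K/BxN ST (adjusted p of 0.00527 and 0.00520), where 1.02% of all genes were called. It called 0 of 3 in TASTPM, where 0.127% of genes were called and its log2 fold changes were 3.9 (standard error 1.37) for Ifitm3, 5.25 (standard error 1.69) for Ifitm2 and 7.5 (standard error 2.35) for Ifitm6, with DESeq2 adjusted p of 0.435, 0.319 and 0.305. Over both genotypes it called all 3, with log2 fold changes of 4.17 for Ifitm3, 6.29 for Ifitm2 and 9.05 for Ifitm6 (adjusted p of 0.00363, 8.88e-05 and 6.28e-05), where 1.43% of genes were called. Without the marker-rich libraries DESeq2 called none of the members in any of these comparisons, but gave no adjusted p for Ifitm6 over both genotypes (unadjusted p = 0.638), with 0.261% of all genes called in WT, 0.0791% in TASTPM and 0.158% over both genotypes. The quasi-likelihood test of edgeR called 0 of 3 over both genotypes with all libraries, at an adjusted p of 0.315 for each, and 0 of all 12646 genes. At an unadjusted p below 0.05, limma had all 3 members over both genotypes. It had none in the other 5 comparisons, where the share over all genes was 7.13% in WT, 4.21% in TASTPM, 3.04% for the interaction of genotype and serum, 5.57% for TASTPM against WT under Control ST and 1.91% under K/BxN ST.

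**Figure D4:**
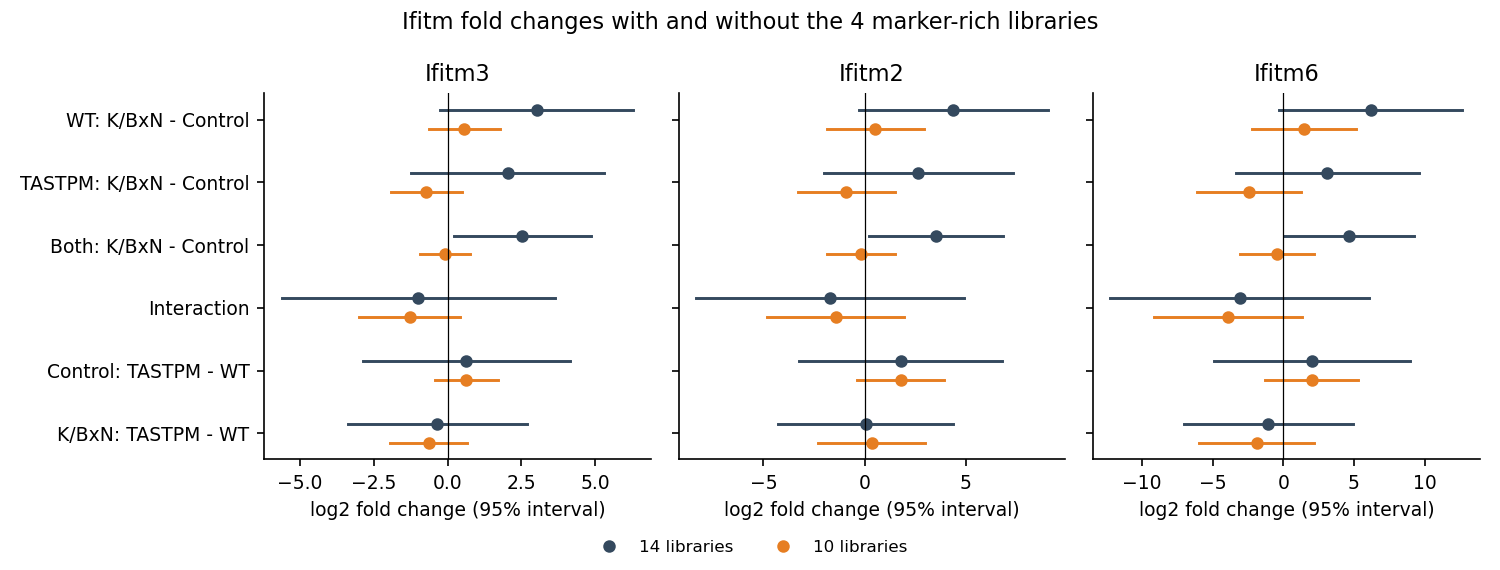
log2 fold change of each member with its 95% interval from limma (horizontal axis) in the 6 comparisons, with all 14 libraries (dark) and with the 10 that are not marker-rich (orange). With 14 libraries the mean over both genotypes lies between 2.53 and 4.64, and with 10 libraries between −0.48 and −0.07.

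The interaction term asked if K/BxN ST acted differently in TASTPM and in WT. It was −0.98 (standard error 2.17) on the log2 scale for Ifitm3, −1.72 (standard error 3.09) for Ifitm2 and −3.08 (standard error 4.29) for Ifitm6, with a limma adjusted p of 0.999 for each, and 0% of all genes were called. The 95% interval for Ifitm3 ran from −5.61 to 3.64, which spans large differences in either direction.

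Under Control ST no library is marker-rich. All 3 TASTPM libraries were above all 3 WT libraries for Ifitm2, at 30.3 to 122 against 17.2 to 26.0 normalised counts. The same held for Ifitm6 in normalised counts, at 3.13 to 24.4 against 0 to 2.81, of which 5 of the 6 libraries have 4 or fewer reads. Its lowest TASTPM library and its highest WT library had 3 reads each, so these were set apart by the scaling alone. For Ifitm3 the groups overlapped. Over all genes tested, every TASTPM library was above every WT library for 4.98%. The log2 fold change was 1.77 (standard error 2.34) for Ifitm2, 2.01 (standard error 3.24) for Ifitm6 and 0.64 (standard error 1.64) for Ifitm3, with limma adjusted p of 0.990, 0.990 and 0.993, and 0% of all genes were called. For both Ifitm2 and Ifitm6 the two-sided exact permutation p was 0.100, the smallest that 3 libraries against 3 can give. Monocyte markers, too, were higher in each of the TASTPM Control ST libraries, at 32.5 to 70.3 RPM against 16.6 to 22.2 in WT Control ST. So were dendritic markers, at 9.82 to 13.4 against 0.0494 to 2.89 RPM, and border macrophage markers, at 256 to 431 against 187 to 215 RPM. The same held, by a small gap, for oligodendrocyte markers, at 114.4 to 149.0 against 80.6 to 113.1 RPM. The summed sex-linked genes were also higher, at 169 to 302 against 148 to 161 RPM. That sum joins Xist with genes of the Y chromosome, so it does not give the sex of a library. Ddx3y, given below, was not spread alike over the Control ST libraries of the genotypes. Neutrophil markers were lower in each TASTPM Control ST library, at 243 to 410 against 437 to 694 RPM, and so were red cell markers, at 30.9 to 72.02 against 83.4 to 2420 RPM. The part of these lists in the values of the members was not tested.

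Under K/BxN ST the genotypes differed less than their libraries did. The log2 fold change of TASTPM against WT was −0.34 (standard error 1.42) for Ifitm3, 0.05 (standard error 2.03) for Ifitm2 and −1.07 (standard error 2.81) for Ifitm6. The limma adjusted p was 1 for each, and 0% of all genes were called. Each genotype had 2 marker-rich libraries of 4.

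Sex-linked transcripts were read in each library because the study used male and female mice. Ddx3y, a gene of the Y chromosome, had 633 to 917 normalised counts in the 4 marker-rich libraries and Xist at most 12.5, as in male mice. Other libraries had it as well: Ddx3y was at 1048 in TASTPM K/BxN ST replicate 3, at 1481 in the third TASTPM Control ST library and at 653 and 1027 in the first and second WT Control ST library. In these 4, Ifitm3 had 289, 432, 317 and 802 normalised counts, its lower level. The third WT Control ST library had both transcripts, with Ddx3y at 236 and Xist at 1706. Among the libraries named here with Ddx3y, those of WT K/BxN ST are the marker-rich pair. Within that group the marker-rich split and sex cannot be told apart. With a sex-linked score from genes of the Y chromosome as covariate, the mean log2 fold change for K/BxN ST was 2.53 for Ifitm3 (limma adjusted p = 0.409), as without it. The genotypes moved apart, and the part of that overlap in these shifts was not tested. In WT the log2 fold change became 4.20 for Ifitm3, 6.58 for Ifitm2 and 8.72 for Ifitm6, with limma adjusted p of 0.336, 0.280 and 0.317. In TASTPM it became 0.87, 0.48 and 0.58, with a limma adjusted p of 1 for each. The interaction moved to −3.32 for Ifitm3, −6.10 for Ifitm2 (95% interval −12.05 to −0.15) and −8.14 for Ifitm6, with a limma adjusted p of 0.994 for each. For Ifitm2 the log2 fold change of TASTPM against WT under Control ST moved from 1.77 to 4.92 (limma adjusted p = 0.645), and no member was called with the covariate.

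Most genes that carry the interferon signal had small fold changes. Of 25 ligands, receptors and transducers, 19 are in the table, and no Ifnb1 or Ifng value was analysed here. In the mean over both genotypes, 0 of the 19 were called by limma, 3 were higher and 3 lower at an unadjusted p below 0.05 (over all genes 5.80% and 3.46%), and their median log2 fold change was 0.16, against 0.03 for all genes. Among the receptors, Ifnar1 had a log2 fold change of 0.16 (standard error 0.17), Ifnar2 −0.26 (0.12), Ifngr1 −0.20 (0.15) and Ifngr2 −0.16 (0.10). Among the transducers, Stat2 had 0.37 (standard error 0.26) and Irf9 0.31 (0.17). Il10rb, a receptor chain shared by interleukin-10 and interferon lambda, had the smallest p in the list, at −0.45 (standard error 0.15, unadjusted p = 0.0077, limma adjusted p = 0.528). Il10rb and Ifngr1 were lower in each marker-rich library than in any other, with gaps of 1.00-fold and 1.04-fold, and Irf7 was higher in each. The other 16 genes of the list overlapped. Over all genes tested, 2.51% were lower in each and 7.64% were higher. With the 10 other libraries alone, the log2 fold change was −0.28 (standard error 0.13) for Il10rb, 0.00115 (standard error 0.10) for Ifngr1, −0.17 (0.11) for Ifngr2, 0.31 (0.19) for Ifnar1 and −0.24 (0.12) for Ifnar2.

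Irf7, the interferon regulatory factor that amplifies type I interferon production, was the 1 gene of this list higher in each marker-rich library than in any other. In WT, it had 253, 387 and 185 normalised counts with Control serum and 1383, 1268, 363 and 252 with K/BxN serum. TASTPM Control ST had 181, 204 and 0, and TASTPM K/BxN ST had 1752, 1488, 317 and 169. As with the Ifitm members, the high libraries were the marker-rich ones, where the lowest was 3.27-fold above the highest of the others. For Irf7 the mean of both genotypes was 2.73 (standard error 1.03) on the log2 scale, with an adjusted p of 0.536 in limma, and the library at 0 enters it. Socs3, an inhibitor of cytokine signalling, had 1.46 (standard error 0.56), but was highest in TASTPM K/BxN ST replicate 3, at 9531 normalised counts, a library that is not marker-rich.

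Interferon-stimulated genes outside the family were taken from a list of 46, of which 44 are in the table and 39 passed the filter. In limma 0 of 39 were called over both genotypes, 8 were higher and 1 lower at an unadjusted p below 0.05 (over all genes 5.80% and 3.46%), and the median log2 fold change was 0.42. DESeq2 called 6 of them higher, namely Zbp1, Oas1a, Slfn2, Ifi207, Trim25 and Sp100, where 1.43% of all genes were called. Of the 39, 12 were higher in each of the marker-rich libraries than in any other, as were 7.64% of all genes, and 0 were lower in each. Samhd1, a nuclease that restricts retroviruses, stood among the 5 genes most like Ifitm3 and Ifitm6. Without the marker-rich libraries the median of the list was 0.19, with 2 higher and 2 lower at an unadjusted p below 0.05 (522 of all 12646 genes in either direction) and 0 called by limma or DESeq2, which gave no adjusted p for Zbp1.

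Zbp1, a sensor of Z-form nucleic acid, had the smallest p of the list. Its 4 WT K/BxN ST libraries had 792, 543, 105 and 198 normalised counts against 0, 65.4 and 0 in WT Control ST. TASTPM K/BxN ST replicates had 737, 608, 110 and 72.2 against 18.8, 38.9 and 25.4 in TASTPM Control ST. In the K/BxN ST libraries that are not marker-rich, Zbp1 had 72.2 to 198 normalised counts, against 0 to 65.4 in the Control ST libraries. The share of all genes set apart in this way was not counted, and Zbp1 was picked by its p. The mean log2 fold change was 4.71 (standard error 0.94, unadjusted p = 1.69e-04, limma adjusted p = 0.310) with all libraries and 3.44 (standard error 1.18, unadjusted p = 0.0139, limma adjusted p = 0.966) without the marker-rich ones. For Ifi207, a DNA sensor of the same family as Ifi204, these values were 2.61 (standard error 0.75) and 0.98 (standard error 0.56). They were 1.37 (standard error 0.40) and 0.52 (standard error 0.23) for Slfn2, which limits cell division, and 1.43 (standard error 0.43) and 0.67 (standard error 0.45) for Oas1a, which makes the activator of RNase L. Mx2, which was named after its values were seen as the 1 gene lower at an unadjusted p below 0.05, had −2.36 (standard error 1.07) and −3.95 (standard error 1.19).

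**Figure D5:**
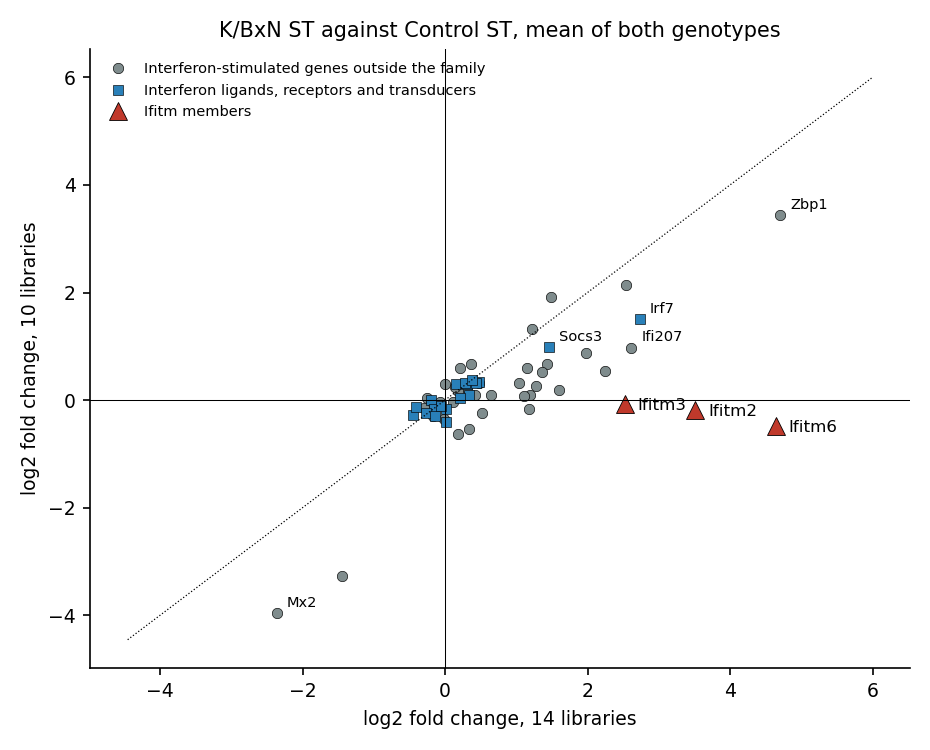
log2 fold change of K/BxN ST against Control ST, as the mean of both genotypes, with all 14 libraries (horizontal axis) and with the 10 that are not marker-rich (vertical axis), for the Ifitm members (triangles), the interferon-stimulated genes (circles) and the signalling genes (squares). The dotted line marks equal values, and the members lie at 2.53 to 4.64 on the horizontal axis and near 0 on the vertical axis, while Zbp1 keeps 3.44 of 4.71.

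The genes whose levels followed the members most closely were listed by Pearson's r of log2(normalised count + 1) over the 14 libraries, as a description. For Ifitm3 these were Tmsb10, Samhd1, Hmgb2, Gnb1 and Lsp1, with r of 0.977 to 0.986. For Ifitm2 they were Ly6c2, Cfl1, Taldo1, Lyz2 and Emb, with 0.970 to 0.982, and for Ifitm6 Gnb1, Samhd1, Tmsb10, Emb and Lyz2, with 0.976 to 0.983. Ly6c2 and Lyz2 are markers of monocytes and of myeloid cells. All libraries share the split into 4 and 10, which sets most of these values. Among themselves, the members had r of 0.962 to 0.975 over 14 libraries and 0.356 to 0.607 over the 10 that are not marker-rich. Over those 10 the most similar genes were other ones: Gm30671, Pilrb2, Eef2kmt, Gm13370 and 4930578M07Rik for Ifitm3, Gm13991, Get3, Cbx6, Garem1 and Adipor2 for Ifitm2, and Mrps21, Layn, Zfp729b, Itgb1bp1 and Gm8226 for Ifitm6. Their r lay between 0.863 and 0.946 and none was among the 5 listed over 14 libraries.

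Genes around the cluster were read as well. Within 200000 bases of it, 14 other genes are in the table and 13 were tested. Their mean log2 fold change for K/BxN ST had a median of 0.13, 7 were above 0 and 6 below, and 1 had an unadjusted p below 0.05, against 1171 of all 12646 genes. Pgghg, the measured gene nearest to the cluster, at 6241 bases before Ifitm2, had 1.74 (standard error 0.91, limma adjusted p = 0.554).

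Other genes of the CD225 family had values below 0. Of 11 listed, Ifitm10 and Tmem91 are in the table. In WT, Ifitm10 had 375, 314 and 298 normalised counts with Control serum against 107, 214, 248 and 269 with K/BxN serum. In TASTPM it had 410, 504 and 270 against 126, 233, 296 and 417, so the groups overlapped there. Its mean log2 fold change was −0.68 (standard error 0.31, unadjusted p = 0.0474, limma adjusted p = 0.536). Ifitm10 was lower in each marker-rich library than in any other, as were 2.51% of all genes tested. For Tmem91 the mean log2 fold change was −0.81 (standard error 0.44). Without the marker-rich libraries the values were −0.23 (standard error 0.29) and −0.41 (standard error 0.56).

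Partners of the IFITM proteins were also examined. Of 11 partners and modifying enzymes, 10 were tested and 0 called by limma over both genotypes, as were 0% of all genes. Their median log2 fold change was −0.17. The tetraspanins Cd9, Cd63 and Cd81, which share membrane domains with IFITM proteins, had −0.51 (standard error 0.23), −0.46 (standard error 0.22) and −0.51 (standard error 0.26). Without the marker-rich libraries these were −0.16 (standard error 0.15), −0.32 (standard error 0.16) and −0.05 (standard error 0.13). Cd81 was lower in each of those 4 libraries than in any other, as were 2.51% of all genes tested. Zdhhc20, a palmitoyltransferase, had −0.21 (standard error 0.17). App, the substrate of gamma-secretase, had 0.19 (standard error 0.17), Bace1, the protease that cuts APP before it, −0.46 (standard error 0.54), and Aph1b, a subunit of the complex, 0.81 (standard error 1.25), and none of these was called by limma.

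The counts of single members have limits set by the annotation. Transcripts of Ifitm2 and Ifitm3 share a run of 69 bases, and 20 windows of 50 bases occur in both. Ifitm6 shares no run over 25 bases with either. On the opposite strand, the non-coding gene Gm57251 covers 60.9% of the exon bases of Ifitm3 and Gm74434 covers 29.3% of those of Ifitm2. On the same strand, Gm45717 covers 26.8% of those of Ifitm2. Whether the counting used strand, and how reads on 2 genes were treated, is not given in the sources used here, so some reads of Ifitm2 and Ifitm3 may have been assigned elsewhere or left out.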

How the data were processed

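RNA was amplified with the SMART-Seq kit. The authors aligned reads with HISAT2 2.1 to GRCm39, counted them per gene with featureCounts 1.5.2 and deposited a normalised signal, the reads of a gene divided by 1 factor per library, in which whole reads were recovered for 100% of values (tolerance 0.01 reads). Of 14336 entries, 7 repeated identifiers were dropped. Libraries were grouped by the group name above each column. Genes that reached 10 reads in 7 or more libraries, and Ifitm6, were tested with limma 3.58.1 (R 4.3.3) on log2(normalised count + 1), with a variance trend, 1 mean per group and Benjamini-Hochberg adjustment over 12646 genes. edgeR 4.0.16 and DESeq2 1.42.0 on recovered reads, other scalings, pseudocounts, filters, covariates and the omission of libraries were alternatives. Runs of edgeR and DESeq2 without marker-rich libraries were added after seeing the data. Exact permutation tests were two-sided. limma and edgeR were first run on simulated counts. Exon positions are from GENCODE M39, later than the annotation of the authors, for 99.57% of genes. Named genes were the members, the listed receptors and transducers, all called list genes or else the 4 with the smallest p, and the 5 most similar genes. The members and lists were chosen with earlier results of these data known. Labels call each library a sample of its group, and the study describes single mice. Numbers of 10 libraries could not be joined to the labels, so these are named in deposited order. Some listed genes are not reported here.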

Additional observations from a re-analysis of the deposited data

How the results depend on the processing

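In limma, the number of members called was 0 of 3 in all 6 comparisons, and it was 0 under each alternative with limma or edgeR and under DESeq2 without the marker-rich libraries, which gave no adjusted p for Ifitm6 over both genotypes and for TASTPM against WT under K/BxN ST. DESeq2 called 2 in WT and 3 over both genotypes, with a filter on low counts or without one (without it, 1.92% and 3.06% of all genes were called). Reversals were as follows, in the order Ifitm2, Ifitm3, Ifitm6 on the log2 scale. For K/BxN ST in TASTPM the values were −1.29, −0.69 and −2.42 with the marker score as covariate, −0.90, −0.71 and −2.43 without the marker-rich libraries, −1.15, −0.69 and −3.92 with edgeR without them, and −1.14, −0.68 and −4.18 with DESeq2 without them. Over both genotypes the values in the same order of settings were −0.168, −0.0135 and −0.516, then −0.181, −0.0708 and −0.481, then −0.0288, −0.0742 and −0.997, and last −0.0236, −0.0701 and −1.08. For TASTPM against WT under K/BxN ST, Ifitm2 (0.05) became −0.0300 with a pseudocount of 10, −0.0479 with edgeR, −0.0418 with DESeq2 with or without a filter, −0.83 with the marker score, −1.18 with the sex-linked score, and −0.20 with edgeR and −0.20 with DESeq2 without the marker-rich libraries. Ifitm3 (−0.34) became 0.0708 with edgeR, 0.0762 with DESeq2 with a filter and 0.0761 without one. The cause was not tested.

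Leaving out 1 library at a time, these log2 fold changes ranged from −1.67 to 1.46 for Ifitm2, −1.49 to 0.78 for Ifitm3 and −3.21 to 0.96 for Ifitm6 under K/BxN ST, and the interaction from −3.44 to −0.32, −2.14 to 0.14 and −5.22 to −1.05. For TASTPM against WT under Control ST the ranges were 1.43 to 2.41, 0.37 to 1.04 and 1.16 to 2.49. The serum response ranged from 2.97 to 6.09, 2.11 to 3.99 and 4.47 to 7.97 in WT, and from 1.19 to 3.9, 0.89 to 3.16 and 0.96 to 5.13 in TASTPM, for Ifitm6 lowest without replicate 1 and highest without replicate 3 of each K/BxN ST group. Over both genotypes the serum response ranged from 2.78 to 4.37, 1.95 to 3.09 and 3.57 to 5.65, and no single omission led to a call. The fold change of Ifitm6 depends on the pseudocount, over both genotypes with 3.85 at 10 and 4.76 at 0.5. At 10 it was 0.71 for TASTPM against WT under Control ST, −0.36 under K/BxN ST and −1.07 for the interaction, against 2.01, −1.07 and −3.08 at 1. No paired analysis was possible because the groups share no replicate numbers. With 3 or 4 libraries per group, the 95% interval over both genotypes was wide, from 0.21 to 4.84 for Ifitm3.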
